A study of Homo sapiens with 12 samples.

Results

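The genes described here are 41 genes that epithelial cells use to join to their neighbours and to keep their top and bottom sides apart. They were chosen by name from the 57187 genes of a count table and all 41 were found there. By role they comprise 4 genes for cadherins and EpCAM, 11 for tight junctions, 11 for desmosomes and their plakins, 8 for epithelial splicing and transcription factors and 7 for polarity, apical transport and the matriptase system. RNA was sequenced from 4 human cancer cell lines, the breast lines MDA-MB-231 and HCC1954 and the ovarian lines OVCAR8 and SKOV3 (spelled OVAR-8 and SKOV-3 in some labels). Each line was sequenced as a control (EV) and after stable transfection with SIVA-WT or with SIVA-D160N, a form of the apoptosis regulator SIVA with a single changed amino acid. There was 1 library for each line and condition, so 12 in all. The labels call the controls parental with no treatment, whereas the study describes them as carrying an empty vector. The transfectants were polyclonal pools selected with hygromycin, and the constructs were driven by a CMV promoter. The study asked whether SIVA-D160N changes gene expression in breast and ovarian cancer lines, since it was studied for its part in migration and invasion.

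Epithelial cells adhere through E-cadherin at adherens junctions, seal the space between cells with claudins and occludin at tight junctions, and resist pulling through desmosomes anchored to keratin filaments. The grainyhead-like, OVOL and ETS-type factors promote these genes, the ESRP proteins direct epithelial splicing, and ZEB1 and related repressors bind short E-box sequences in many of their promoters. Carcinoma lines range from epithelial lines that keep this programme to mesenchymal lines that have lost most of it.

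The promoters were read because such repressors act on the E-box. The motif searched was CAGGTG on either strand, which reads CACCTG on the other strand, in RefSeq promoter windows (build GRCh38.p14) that run from 250 bases before a transcription start to 50 after it. A window was available for 22 of the 41 genes (32 windows, since some genes have several starts). At least 1 match was present for 13 of the 22 genes (59.1%), against 24.1% of all 27305 genes with a window, and in 14 of 32 windows (43.8%), against 20.6% of all 35116 windows. CRB3, which encodes an apical polarity protein, and CLDN7, a claudin, each had 5 matches, a number reached by 0.106% of all genes. The 250 bases before the start are printed here for these genes, which had the most matches, and for DSG2, a desmosomal cadherin with 2 matches that was present in all lines. Capitals mark the motif.
CRB3, chr19:6464021-6464270, plus strand: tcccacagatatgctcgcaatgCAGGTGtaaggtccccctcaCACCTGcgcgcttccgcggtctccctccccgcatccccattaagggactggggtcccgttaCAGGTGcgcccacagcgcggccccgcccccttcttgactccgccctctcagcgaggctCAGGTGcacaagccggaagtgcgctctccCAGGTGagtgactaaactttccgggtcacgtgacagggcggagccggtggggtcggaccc
CLDN7, chr17:7262479-7262728, minus strand: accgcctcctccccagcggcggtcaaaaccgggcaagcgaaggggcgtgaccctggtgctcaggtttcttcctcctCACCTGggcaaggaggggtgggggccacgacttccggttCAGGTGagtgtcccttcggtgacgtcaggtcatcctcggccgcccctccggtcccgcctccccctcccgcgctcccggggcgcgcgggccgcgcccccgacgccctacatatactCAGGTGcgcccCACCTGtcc
DSG2, chr18:31497927-31498176, plus strand: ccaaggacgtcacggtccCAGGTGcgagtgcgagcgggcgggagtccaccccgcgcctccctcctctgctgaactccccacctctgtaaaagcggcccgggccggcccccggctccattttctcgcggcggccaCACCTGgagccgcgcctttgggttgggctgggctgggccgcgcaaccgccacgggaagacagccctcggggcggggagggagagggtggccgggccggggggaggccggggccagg
In the CLDN7 window 4 of the 5 matches lie before the start and are capitalised, and the other RefSeq start of CLDN7 had 0 matches. Genes with and without matches were among those higher in HCC1954 than in every other line. EHF, CLDN1, CLDN4, GRHL1 and CGN had 0 matches and were higher there, as were CRB3 and CLDN7. RAB25 had 2 matches, as DSG2 did, and was nearly limited to HCC1954. CDH1, GRHL2, ESRP1 and EPCAM were among the genes without a window. A relation of matches to the pattern over lines was not tested. A match is a string of letters and not a measured binding site.

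Total counts per library ranged from 35791455 to 45890398, so that 3 counts, taken here as the floor of detection, correspond to at most 0.0850 CPM (counts scaled to library size, with normalisation factors from the trimmed mean of M values, TMM). SIVA1, the gene for SIVA, had 1985 counts in the SKOV3 control, 1272 in that of MDA-MB-231 and 2419 in that of OVCAR8, 930 to 6723 in the transfectants, and 0 in the HCC1954 control. Ratios to that control library are therefore given for HCC1954 beside the values of SIVA-WT. The Mullerian factor PAX8 had 2335 to 10838 counts in the ovarian lines and 67 to 155 in the breast lines. The 8 ovarian and Mullerian markers summed to 481 to 530 CPM in SKOV3 and 154 to 190 in OVCAR8. In HCC1954 they summed to 100 to 134 CPM and in MDA-MB-231 to at most 3.96. By the thresholds below, 2 of the 7 tested were higher and 3 lower in OVCAR8 than in HCC1954 (16.6% and 17.7% of all genes). The breast factor GATA3 had 1659 to 2072 counts in HCC1954, 79 to 113 in MDA-MB-231, 216 to 239 in OVCAR8 and 0 to 1 in SKOV3. The list of 12 breast markers did not follow tissue: it summed to 659 to 734 CPM in MDA-MB-231 and to 6905 to 13014 CPM in SKOV3, where ERBB2 alone had 5950 to 12135 CPM. Markers of leukocytes summed to at most 3.27 CPM in any library, and those of endothelial cells to 47.5 to 91.7 CPM in HCC1954 and at most 5.53 CPM elsewhere.

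The 41 genes divided the lines sharply. Their summed level was 7943 to 8165 CPM in the 3 HCC1954 libraries, 1133 to 1248 in SKOV3, 944 to 1108 in OVCAR8 and 683 to 744 in MDA-MB-231. HCC1954 thus lay above all 9 other libraries, and within a line the 3 conditions lay close together. The 3 libraries of a line (1 per condition) are not independent replicates: they differ in condition and are not stated to be independent cultures, so the spread between them, used here as the replicate error of a line (SD, n = 3), includes any effect of the construct. Counts below are in the order EV, SIVA-WT and SIVA-D160N.

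**Figure D1:**
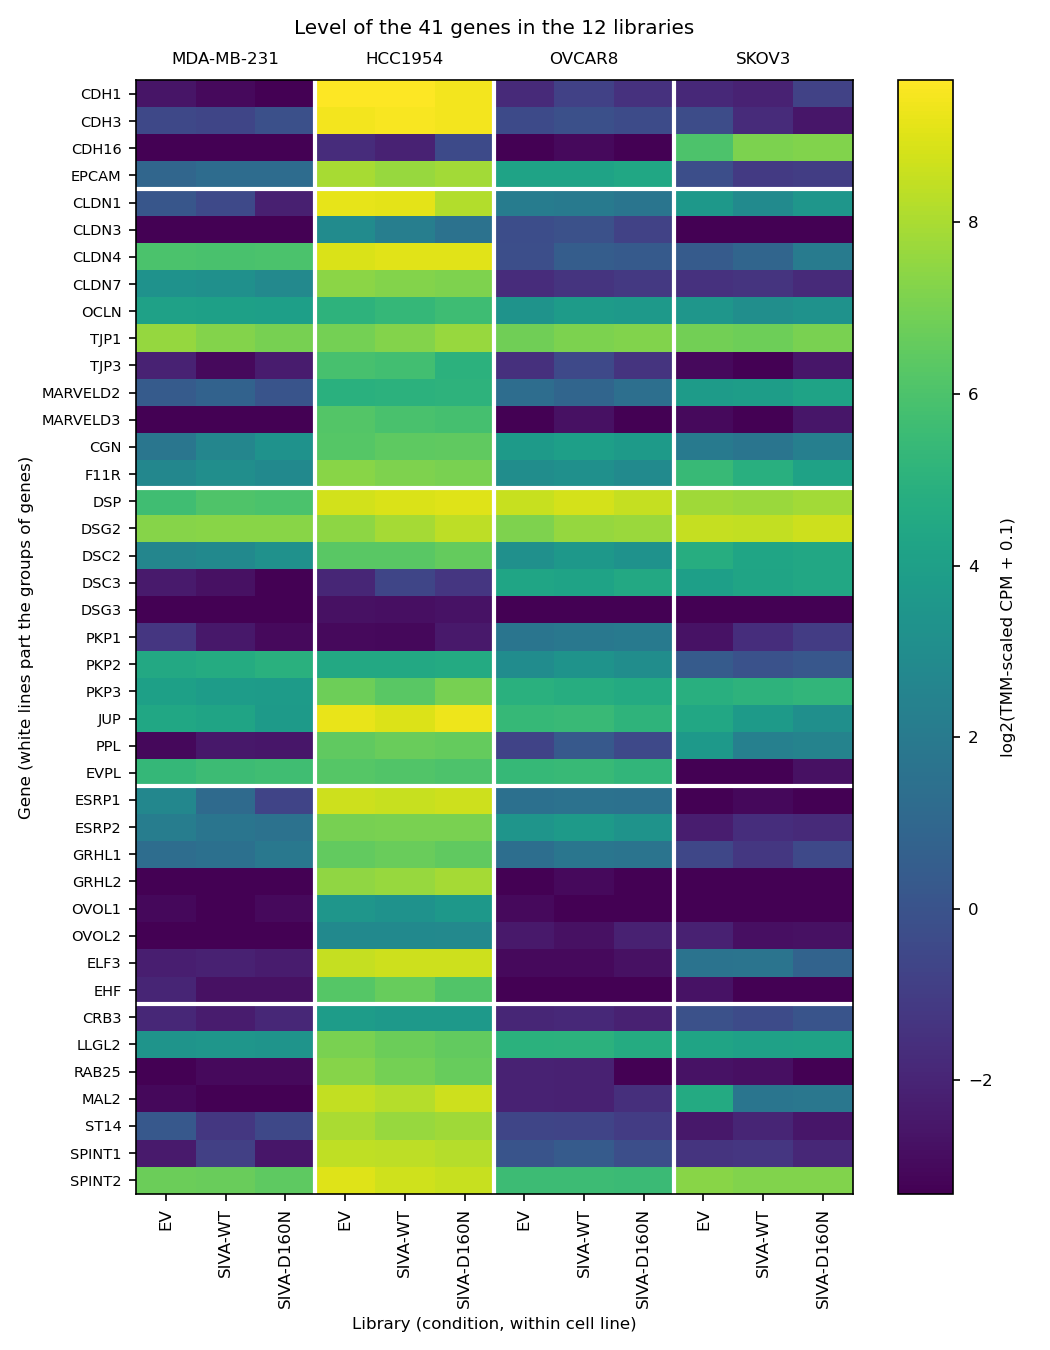
Level of each of the 41 genes (rows, grouped by role) in each of the 12 libraries (columns, grouped by cell line), as log2 of TMM-scaled CPM plus 0.1, from dark (absent) to yellow. The 3 HCC1954 columns are bright for most genes, CDH16 is bright in SKOV3, TJP1 and DSG2 are bright throughout, and DSG3 is dark throughout.

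Among the cadherins, CDH1, which encodes E-cadherin, had 33618, 35126 and 24338 counts in HCC1954. The other lines had next to none, at 3, 1 and 0 in MDA-MB-231, at 7, 18 and 10 in OVCAR8 and at 7, 6 and 20 in SKOV3. No library outside HCC1954 had more than 20 counts, and mean levels were 765 ± 65.6 CPM in HCC1954 against 0.308 ± 0.146 in OVCAR8 and 0.270 ± 0.193 in SKOV3 (SD, n = 3). CDH3, the gene for P-cadherin, lies 3.5 kb before CDH1 on chromosome 16 and was likewise far higher in HCC1954. It had 29317, 31972 and 24281 counts in HCC1954 and 3 to 33 in the 9 other libraries, 1084-fold higher in HCC1954 than in MDA-MB-231 (10.08 on the log2 scale, SE 0.36, edgeR quasi-likelihood test with Benjamini-Hochberg adjustment, FDR 7.61e-10). CDH16, a kidney-type cadherin gene about 1726.4 kb from CDH3, was instead high in SKOV3. It had 2433, 6113 and 5965 counts in SKOV3, 9, 6 and 23 in HCC1954, 0, 1 and 0 in OVCAR8 and 0 in all 3 libraries of MDA-MB-231. It follows that SKOV3 was 346-fold higher than HCC1954 and at least 1617-fold higher than MDA-MB-231, counting 3 reads per library as the floor.

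EPCAM, an adhesion molecule of simple epithelia, was graded rather than on or off. Its mean was 227 ± 21.3 CPM in HCC1954, 19.4 ± 1.51 in OVCAR8, 2.14 ± 0.251 in MDA-MB-231 and 0.514 ± 0.220 in SKOV3, and each neighbouring pair in this order differed beyond the replicate error. The step from OVCAR8 to HCC1954 was 11.7-fold (FDR 3.99e-09, edgeR), that from MDA-MB-231 to OVCAR8 9.06-fold (FDR 3.34e-08, edgeR) and that from SKOV3 to MDA-MB-231 4.18-fold (FDR 7.80e-06, edgeR).

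The claudins each had a pattern of their own below HCC1954. CLDN1, a barrier claudin, had 24536, 24005 and 10050 counts in HCC1954, 461, 325 and 457 in SKOV3, 154, 153 and 121 in OVCAR8 and 46, 25 and 5 in MDA-MB-231. CLDN3 had 324, 198 and 100 counts in HCC1954 and 27, 32 and 19 in OVCAR8, and 0 in all MDA-MB-231 and SKOV3 libraries. CLDN4, which lies 60.7 kb from CLDN3 on chromosome 7, had 20180, 23518 and 19071 counts in HCC1954 and 2852, 2411 and 2607 in MDA-MB-231. In OVCAR8 CLDN4 had 28, 51 and 46 counts and in SKOV3 46, 79 and 169. MDA-MB-231, which had no CLDN3 count, was therefore 56.7-fold higher in CLDN4 than OVCAR8, which had some (log2 difference of OVCAR8 to MDA-MB-231 -5.86, SE 0.31, edgeR FDR 3.00e-08). CLDN7 had 7032, 6612 and 4960 counts in HCC1954 and 447, 353 and 276 in MDA-MB-231, and 8 to 13 in the 6 ovarian libraries. The log2 difference of OVCAR8 to HCC1954 in CLDN7 was -9.07 (SE 0.19, edgeR FDR 2.97e-11), and OVCAR8 and SKOV3 did not differ beyond the replicate error (-0.17, SE 0.29, edgeR FDR 0.706).

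Of the other tight junction genes, TJP1, the scaffold ZO-1, was held at a similar level in all lines, with means of 121 to 158 CPM and edgeR FDR values of 0.0766 to 0.974 over the 6 pairs of lines. OCLN, encoding occludin, had means of 40.6 CPM in HCC1954 and 9.84 to 16.4 in the other lines. MARVELD2, encoding tricellulin, lies 48.2 kb from OCLN on chromosome 5 and differed more, with 31.6 ± 1.77 CPM in HCC1954, 15.7 ± 2.37 in SKOV3, 2.23 ± 0.416 in OVCAR8 and 1.24 ± 0.322 in MDA-MB-231. MARVELD3, the remaining member of that family, had 2021 to 3020 counts in HCC1954 and 0 to 3 elsewhere. TJP3, the scaffold ZO-3, had 1127 to 2507 counts in HCC1954 and 0 to 24 elsewhere. CGN, which encodes the tight junction adaptor cingulin, averaged 84.1 CPM in HCC1954, 14.1 in OVCAR8, 6.39 in MDA-MB-231 and 3.98 in SKOV3, and F11R, the junctional adhesion molecule A, 147, 8.19, 7.21 and 29.6 CPM in the same lines.

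The desmosomal genes had several patterns. DSP, which encodes desmoplakin, the link to keratin filaments, had means of 481 ± 42.3 CPM in HCC1954, 398 ± 40.9 in OVCAR8, 219 ± 12.2 in SKOV3 and 60.4 ± 8.69 in MDA-MB-231. It was lower in MDA-MB-231 than in every other line by the thresholds used here (edgeR FDR 2.06e-09 to 9.81e-08), and HCC1954 and OVCAR8 differed by only -0.28 on the log2 scale (SE 0.12, edgeR FDR 0.0452). The desmosomal cadherin genes DSC3, DSC2, DSG3 and DSG2 lie in this order within 559.6 kb of chromosome 18 and differed from one another. DSG2 was present in all 12 libraries at 5105 to 16374 counts. DSG3 had 0 counts outside HCC1954 and 2 in each HCC1954 library, and was not tested. DSC2 was highest in HCC1954, at 85.5 ± 8.75 CPM against 7.62 to 22.8 in the other lines. DSC3 was found mainly in the ovarian lines, with 724, 705 and 877 counts in OVCAR8, 611, 842 and 890 in SKOV3, 7, 24 and 11 in HCC1954 and 4, 2 and 0 in MDA-MB-231. OVCAR8 exceeded HCC1954 in DSC3 by 5.87 on the log2 scale (SE 0.35, edgeR FDR 3.77e-08), and the ovarian lines did not differ beyond the replicate error (1.08-fold, edgeR FDR 0.723).

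Plakophilins and plakins link desmosomal cadherins to desmoplakin or filaments. PKP1 had 119, 138 and 155 counts in OVCAR8 and at most 16 in any other library. PKP2 had similar means in MDA-MB-231 (26.0 ± 3.67 CPM) and HCC1954 (23.3 ± 1.23), with lower means in OVCAR8 (8.71 ± 1.21) and SKOV3 (1.04 ± 0.183). PKP3 ranged from 14.8 CPM in MDA-MB-231 to 106 in HCC1954, and JUP, encoding plakoglobin, from 14.7 in SKOV3 to 578 in HCC1954. EVPL, encoding envoplakin, was missing from SKOV3, with 0, 0 and 2 counts, and had 1414 to 3166 counts in each of the 9 other libraries. Its partner PPL, encoding periplakin, had 467, 218 and 222 counts in SKOV3, 3364 to 4543 in HCC1954, 19 to 43 in OVCAR8 and 1 to 3 in MDA-MB-231. SKOV3 thus had counts of PPL with next to none of EVPL, and MDA-MB-231 the reverse.

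The splicing and transcription factors were largely limited to HCC1954. GRHL2, a grainyhead-like factor, had 7662, 8667 and 8492 counts in HCC1954 and 0 in 8 of the 9 other libraries, with 1 count in the SIVA-WT library of OVCAR8. HCC1954 was at least 2892-fold higher than MDA-MB-231 and at least 2825-fold higher than SKOV3. Its relative GRHL1 was detected in every line, at 95.7 CPM in HCC1954, 2.95 in OVCAR8, 2.90 in MDA-MB-231 and 0.518 in SKOV3. OVOL1 and OVOL2, zinc-finger factors that oppose mesenchymal change, had 427 to 463 and 240 to 302 counts in HCC1954, and 0 to 1 and 0 to 5 elsewhere. The ETS factor EHF had 2502 to 4355 counts in HCC1954 and 0 to 7 elsewhere. ELF3, a further epithelial ETS factor, had 15354, 17695 and 14229 counts in HCC1954 and also 111, 136 and 67 in SKOV3, against 1 to 5 in MDA-MB-231 and OVCAR8. HCC1954 exceeded MDA-MB-231 in ELF3 3517-fold (11.75 on the log2 scale, SE 0.26, edgeR FDR 4.44e-11). The splicing regulator ESRP1 had 16955, 16690 and 14439 counts in HCC1954, 287, 86 and 22 in MDA-MB-231, 0, 1 and 0 in SKOV3 and 97, 110 and 107 in OVCAR8. ESRP2 followed with 132 ± 2.61 CPM in HCC1954, 11.4 ± 1.56 in OVCAR8, 3.48 ± 0.848 in MDA-MB-231 and 0.175 ± 0.0618 in SKOV3. SKOV3 was called lower than each of the other lines in ESRP1, ESRP2 and GRHL1.

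In the polarity and transport group, RAB25, a small GTPase of apical recycling, had 6650, 5414 and 3542 counts in HCC1954 and 0 to 5 elsewhere. MAL2, which carries proteins to the apical side, had 14874, 13103 and 14290 counts in HCC1954, 930, 143 and 139 in SKOV3, 5 to 9 in OVCAR8 and 0 to 1 in MDA-MB-231. CRB3 had 446 to 603 counts in HCC1954, 31 to 38 in SKOV3 and 4 to 8 elsewhere. LLGL2, a basolateral polarity gene, was present in all lines, from 10.7 ± 0.364 CPM in MDA-MB-231 to 110.5 ± 18.7 in HCC1954. The membrane protease matriptase (ST14) and its inhibitor HAI-1 (SPINT1) had means of 228 and 324 CPM in HCC1954 and below 1 CPM in every other line, whereas the inhibitor HAI-2 (SPINT2) was present in all lines at 47.0 to 441 CPM. SPINT2 was thus detected at 1759 to 6481 counts in libraries in which its relative SPINT1 had 3 to 47.

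Levels of different genes can be compared after division by exonic length (RPKM, CPM per kilobase of exon). In HCC1954 the highest means per length were 130 RPKM for CLDN1, 126 for CDH1, 117 for JUP, 111 for CLDN4, 110 for CDH3 and 103 for MAL2. In SKOV3 DSG2 (39.2 RPKM), CDH16 (32.3), SPINT2 (29.8) and DSP (16.1) led, in OVCAR8 DSP (29.2) and DSG2 (19.1), and in MDA-MB-231 SPINT2 (19.4), DSG2 (16.9), TJP1 (13.9) and CLDN4 (13.3). In the 3 lines with little E-cadherin RNA the first gene by length-corrected level was therefore desmosomal in SKOV3 and OVCAR8 and SPINT2 in MDA-MB-231.

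To count such differences, each pair of lines was tested over 19204 genes with edgeR, with condition as a covariate, and a gene was called where the FDR was below 0.05 and the log2 difference was 1.5 or more in size. All genes of the set but DSG3 were tested, 40 in all. The filter on low counts kept genes present in a single line. GRHL2, MARVELD3, OVOL1, OVOL2, EHF and RAB25, with 0 to 7 counts per library outside HCC1954, passed it through HCC1954 alone. TJP3 passed it only with the libraries of HCC1954, CDH16 only with those of SKOV3 and PKP1 only with those of OVCAR8. The higher level of each in that line was thus a condition of its entry. Between HCC1954 and MDA-MB-231 34 were called, each of them higher in HCC1954, where 19.6% of all genes were called higher and 13.5% lower. The median log2 difference of the 40 genes was 5.85, against 0.03 over all genes, and the fitted differences of GRHL2, MAL2, CDH1, MARVELD3 and RAB25 led. Where a line had next to no counts, as for these 5 genes in MDA-MB-231, the order of fitted differences depends on the prior count and is no ranking of true size. Against HCC1954, OVCAR8 was lower in 33 genes and higher in 2, DSC3 and PKP1, with 17.7% and 16.6% of all genes called in those directions and a median of -4.91 against 0.00. EHF, GRHL2, ELF3, MARVELD3 and CDH1 led that comparison. SKOV3 was lower than HCC1954 in 33 genes and higher in 3, CDH16, DSC3 and PKP1, with 16.8% and 16.0% of all genes called and a median of -6.10 against 0.00. Here GRHL2, ESRP1, EHF, EVPL and RAB25 led, and PKP1 rested on 2 to 16 counts.

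The lines other than HCC1954 differed from each other in both directions. OVCAR8 was higher than MDA-MB-231 in 12 genes and lower in 4, with 15.7% and 10.6% of all genes called and a median of 1.03 against 0.02. By fitted difference DSC3 and CLDN3 led the higher and CLDN4 and CLDN7 the lower genes. OVOL2, also called, had 2 to 5 counts in OVCAR8 and 0 in MDA-MB-231, at least 1.23-fold higher. SKOV3 was higher than MDA-MB-231 in 13 genes and lower in 9, with 17.2% and 12.4% of all genes called and a median of 0.50 against 0.05. The leading fitted differences were higher values of CDH16, MAL2 and DSC3 and lower values of EVPL and ESRP1. SKOV3 was higher than OVCAR8 in 8 genes and lower in 13, with 15.3% and 15.8% of all genes called and a median of -0.27 against 0.03. The leading fitted differences were higher values of CDH16 and ELF3 and lower values of EVPL, ESRP1 and CLDN3. CDH1, CLDN7, TJP1 and MARVELD3 were among the genes not called between the ovarian lines.

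Calls against each of the other 3 lines at once set the lines apart in the same way. HCC1954 was higher than all 3 in 30 of the 40 genes, against 8.11% of all genes. These 30 include GRHL2, MARVELD3, OVOL1, OVOL2, EHF and RAB25, which passed the filter through HCC1954 alone. They also include TJP3, which passed it only with the HCC1954 libraries. SKOV3 was lower than all 3 in 7 genes, EPCAM, PKP2, EVPL, ESRP1, ESRP2, GRHL1 and ST14 (3.68% of all genes), and higher in CDH16 alone (5.14%). MDA-MB-231 was lower than all 3 in 6 genes, CDH1, CLDN1, DSP, DSC3, PPL and OVOL2 (4.78%). Of these CDH1 and OVOL2 had at most 20 and 5 counts in either ovarian line and DSC3 7 to 24 in HCC1954, and CLDN1, DSP and PPL remained when at least 10 counts were asked of every library of the higher line. OVCAR8 was higher than all 3 in PKP1 alone (5.77%). PKP1 passed the filter only with the OVCAR8 libraries and CDH16 only with those of SKOV3, so these calls were a condition of their entry.

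**Figure D2:**
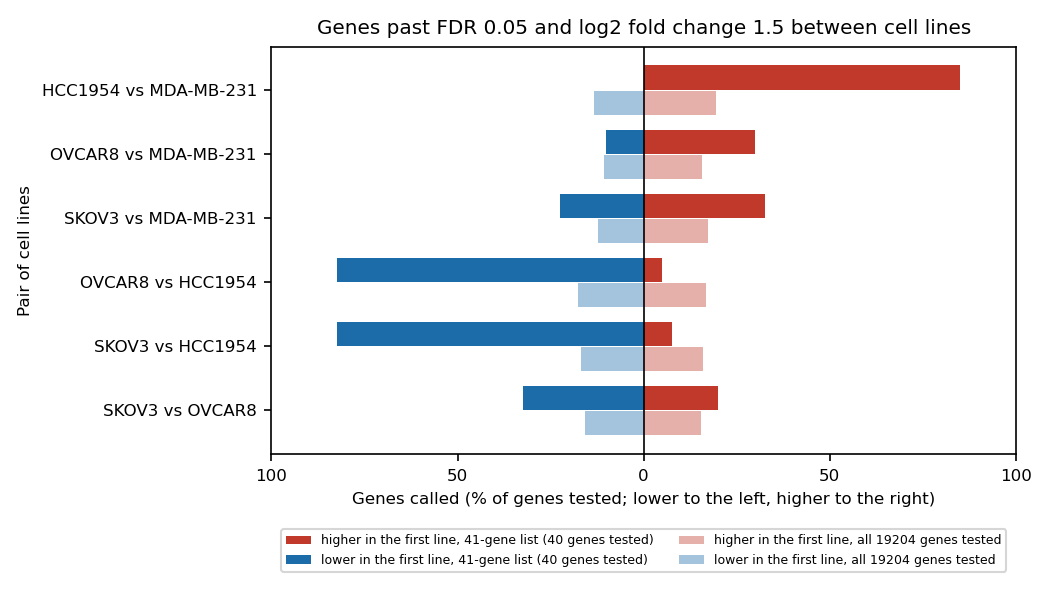
Percentage of genes called lower (left, blue) or higher (right, red) in the first line of each pair, for the 40 genes of the set that were tested (solid) and for all 19204 genes tested (pale). The solid bars stand for 34, 33 and 33 genes on the HCC1954 side of the 3 pairs that include HCC1954, and are shorter and on both sides in the other 3 pairs. The bars on the HCC1954 side include genes that passed the filter on low counts only with the HCC1954 libraries. Those on the SKOV3 and OVCAR8 sides include CDH16 and PKP1, which passed it only with SKOV3 and OVCAR8.

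The same pairs were counted over 52 further junction and polarity genes, among them catenins, nectins, PAR and Scribble complex genes and other claudins, of which 41 were tested. HCC1954 was higher than MDA-MB-231 in 16 of these and lower in 3 (39.0% and 7.32%, against 19.6% and 13.5% of all genes). OVCAR8 was higher than HCC1954 in 4 and lower in 17 (9.76% and 41.5%, against 16.6% and 17.7%), and SKOV3 was higher than HCC1954 in 5 and lower in 13 (12.2% and 31.7%, against 16.0% and 16.8%). Their median log2 differences, 0.68, -1.01 and -0.46, were smaller than those of the 41-gene set. Of the 23 mesenchymal genes 8 were called higher and 7 lower in HCC1954 than in MDA-MB-231 (34.8% and 30.4%). In OVCAR8 10 were higher and 8 lower than in HCC1954 (43.5% and 34.8%). SKOV3 went mostly 1 way, with 15 higher and 3 lower than in HCC1954 (65.2% and 13.0%). The shares of all genes are those given above for the same pairs, and the median log2 differences were 0.68, 0.76 and 3.11. Among the mesenchymal genes VIM, encoding vimentin, had 3984, 6915 and 10165 counts in HCC1954 and 111596 to 177749 in the other lines. ZEB1 had 7, 35 and 57 in HCC1954 and 727 to 4904 elsewhere. CDH2, encoding N-cadherin, had 4194 to 7550 counts in the ovarian lines and 3 to 13 in both breast lines. MDA-MB-231 therefore had next to no RNA of CDH1, CDH2 or CDH16, with 22 to 33 counts of CDH3.

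The effect of the constructs was tested over the 4 lines with cell line as a block, over 17211 genes of which 34 belonged to the set. DSG3 and the 6 genes MARVELD3, GRHL2, OVOL1, OVOL2, EHF and RAB25, nearly limited to HCC1954, did not pass the filter on low counts. No gene of the set was called in SIVA-D160N against EV, where 0.00581% of all genes were called (edgeR). At an unadjusted p under 0.05 there were 11 of 34 (3 with higher and 8 with lower values) against 14.2% of all genes. DESeq2 and limma-voom each gave 9 at that level, against 13.5% and 16.5% of all genes by the same tools. Each made 0 calls in the set, where they called 12 and 27 of all genes. By edgeR the 11 became 5 of 33 without HCC1954 (9.66% of all genes), 6 of 39 without SKOV3 (13.4%), 8 of 40 without MDA-MB-231 (11.3%) and 9 of 39 without OVCAR8 (14.9%). In SIVA-WT against EV 0 genes of the set were called (0% of all genes), and 2 had an unadjusted p under 0.05 (2.54% of all genes). DESeq2 gave 0 at that level (2.26% of all genes) and limma-voom 2 (3.22%). In SIVA-D160N against SIVA-WT 0 were called (0% of all genes), and 0 had an unadjusted p under 0.05 by edgeR (6.88% of all genes). DESeq2 gave 1 at that level (6.18% of all genes) and limma-voom 2 (8.35%). The first 2 comparisons share the EV libraries.

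The smallest p-values in SIVA-D160N against EV belonged to CDH16, DSG2, SPINT2, CLDN3, JUP and CLDN1. CDH16 had a log2 fold change of 1.30 (SE 0.34, edgeR FDR 0.192), which rests on SKOV3 and on the 9 and 23 counts of HCC1954. DSG2 had a log2 fold change of 0.42 (SE 0.13, edgeR FDR 0.215), with values above EV in 4 of 4 lines, at 7024 and 6707 counts in MDA-MB-231, 7397 and 11432 in HCC1954, 5105 and 7984 in OVCAR8 and 13652 and 16374 in SKOV3. The MDA-MB-231 libraries differ in depth, and the ratio there was 1.05 in CPM. SPINT2 had -0.24 (SE 0.08, edgeR FDR 0.260), with values below EV in 4 of 4 lines. Those of CLDN3, JUP and CLDN1 were -1.11, -0.52 and -0.69 (edgeR FDR 0.265, 0.278 and 0.314), and CLDN1 was below EV in 4 of 4 lines. With no filter on low counts the edgeR FDR fell to 0.00305 for CDH16, 0.0422 for DSG2, 0.0355 for JUP and 0.0313 for CLDN1, with log2 fold changes still under 1.5 in size. Other alternatives went the other way. With each line left out the lowest edgeR FDR in the set was 0.194 to 0.324, and without the block on cell line 0.999998. Over the 34 genes 3 (CLDN4, CGN and DSG2) had higher values in all 4 lines and 4 (CLDN1, ST14, SPINT1 and SPINT2) lower values in all 4. Some of these were near equal in EV and SIVA-D160N, as CLDN4 at 63.0 and 63.3 CPM in MDA-MB-231 and CGN at 13.2 and 13.3 in OVCAR8. ST14 had 3 counts in EV and in SIVA-D160N in SKOV3, and SPINT1 4 and 3 in MDA-MB-231. The share of all genes on the same side in 4 of 4 lines was not counted.

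In SIVA-WT against EV the smallest p-values were those of MAL2 (-1.62, SE 0.55), CDH16 (0.89, SE 0.33), ST14 (-0.49, SE 0.23), DSG2 (0.24), DSP (0.17) and SPINT2 (-0.14), each with an edgeR FDR of 1.00. In SIVA-D160N against SIVA-WT they were those of SPINT1 (-0.53, SE 0.25, edgeR FDR 0.740), CLDN3 (-0.72), F11R (-0.33), CLDN7 (-0.23), TJP3 (-0.62) and LLGL2 (-0.15). The change with SIVA-D160N was also compared between tissues, as the ovarian minus the breast change. No gene of the set passed an FDR of 0.05 (edgeR, 0.00581% of all genes). At an unadjusted p under 0.05 edgeR gave 4 (5.06% of all genes), DESeq2 2 (3.46%) and limma-voom 3 (5.58%). The 4 by edgeR were MAL2 (-2.57, SE 0.67, edgeR FDR 0.803), CLDN4 (1.25), ELF3 (-0.88) and CLDN1 (1.14). The MAL2 value turned positive when either SKOV3 or HCC1954 was left out (0.61 and 0.86).

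**Figure D3:**
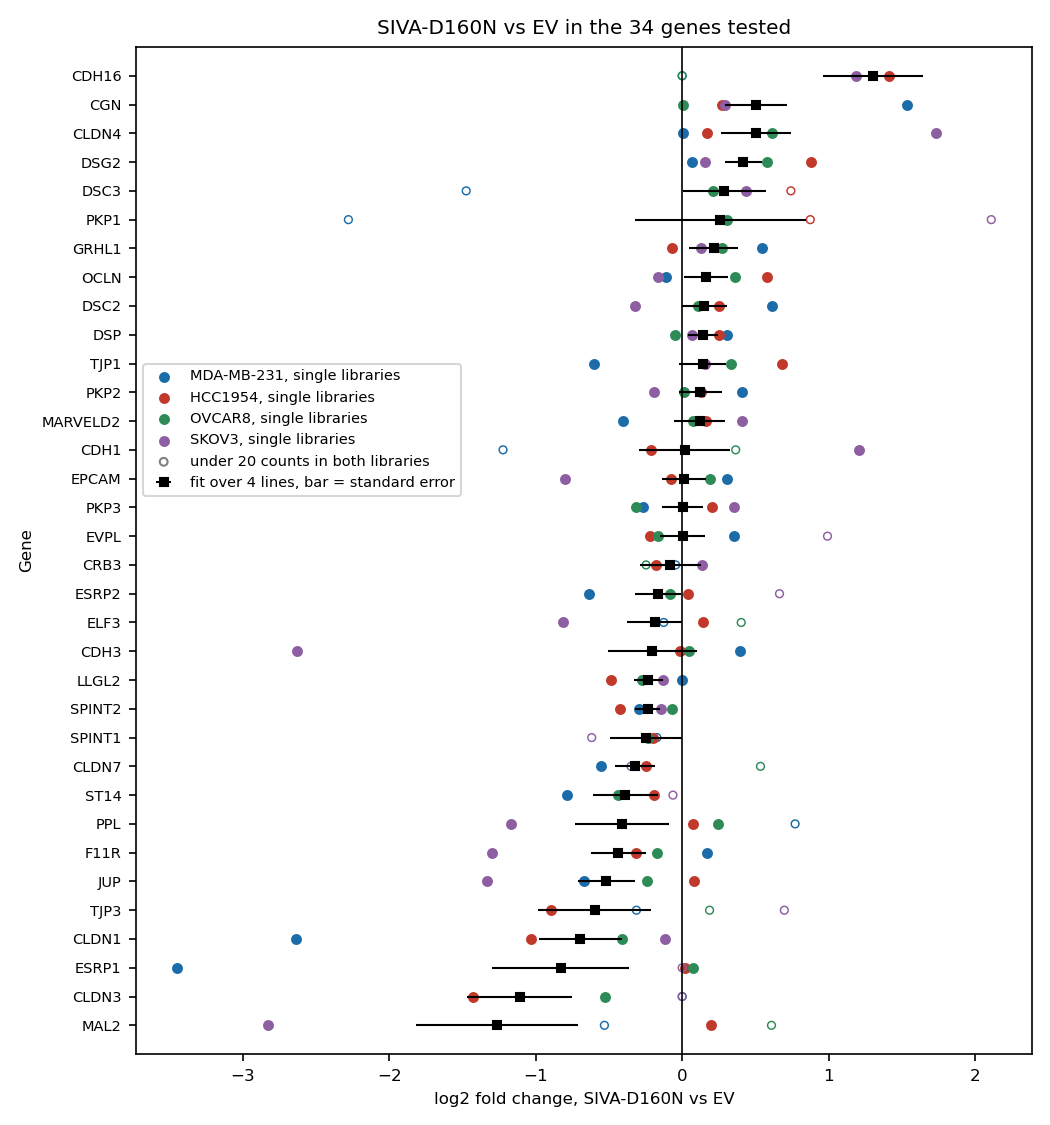
Log2 fold change of SIVA-D160N against EV for the 34 genes tested, ordered by the value fitted over the 4 lines (black squares with standard errors), with the ratio of the 2 libraries of each line (coloured points, hollow where both libraries had under 20 counts). The standard errors were derived from the edgeR F statistic. Most fitted values lie within 1 of 0, and the points farthest from their fitted value are ESRP1 and PKP1 in MDA-MB-231 and CDH3 in SKOV3.

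Ratios of 2 single libraries vary more than values fitted over 4 lines, so larger differences within a line are no result in themselves. With 1 library per condition these ratios have no replicate check, and a ratio of at least 2-fold (with a prior count of 2) is used only as a rule of size. Between SIVA-D160N and EV it was passed by 9 of the 34 genes in SKOV3 (8.74% of all genes), 6 in MDA-MB-231 (6.83%), 3 in HCC1954 (10.2%) and 0 in OVCAR8 (3.51%). Between SIVA-WT and EV it was passed by 6 in SKOV3 (5.79%), 5 in MDA-MB-231 (4.57%), 1 in HCC1954 (4.49%) and 3 in OVCAR8 (3.16%). Between SIVA-D160N and SIVA-WT the numbers were 4 in SKOV3 (3.09%), 4 in MDA-MB-231 (3.83%), 1 in HCC1954 (8.79%) and 1 in OVCAR8 (2.78%). Several of these genes had few counts, and those with at least 20 in a library are described next.

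In MDA-MB-231, ESRP1 had 287 counts in EV, 86 in SIVA-WT and 22 in SIVA-D160N, or 6.34, 2.17 and 0.534 CPM. The EV library was the highest and SIVA-D160N the lowest, with log2 ratios to EV of -1.52 and -3.45. CLDN1 took the same order with 46, 25 and 5 counts (log2 ratios -0.65 and -2.64). CGN had the opposite order, with 150, 244 and 399 counts (log2 ratios 0.88 and 1.53). ST14 had 49 counts in EV, 13 in SIVA-WT and 25 in SIVA-D160N. Among the changes past 2-fold from fewer counts, PKP1 had 14, 3 and 1 and SPINT1 4, 18 and 3.

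In HCC1954, where the set was strongly expressed, CDH1 was 798, 807 and 689 CPM in EV, SIVA-WT and SIVA-D160N, and GRHL2 182, 199 and 240.5 CPM. Past 2-fold in SIVA-D160N against EV were CLDN1 (583, 551 and 285 CPM), CLDN3 (7.69, 4.55 and 2.83 CPM) and CDH16 (0.214, 0.138 and 0.651 CPM). Against SIVA-WT rather than the EV library with no SIVA1 count, CLDN1 was 1.94-fold and CLDN3 1.61-fold lower in SIVA-D160N, both under 2-fold, and CDH16 alone passed it, with 23 against 6 counts. RAB25, outside the tested genes, was 158, 124 and 100.3 CPM. In the same line the mesenchymal list summed to 1184, 1897 and 2448 CPM, with VIM at 94.6, 159 and 288 CPM. Its 21 tested genes had a median log2 ratio to EV of 0.75 in both transfectants, against -0.03 and 0.06 for the 34 genes of the set in SIVA-WT and SIVA-D160N. Whether the mesenchymal values take part in the claudin values was not tested.

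In OVCAR8 none of the 34 ratios of SIVA-D160N to EV reached 2-fold, and in SIVA-WT those that did were PPL with 43 against 19 counts, TJP3 with 24 against 9 and CDH1 with 18 against 7. EPCAM had 680, 709 and 813 counts there and DSP 13942, 16972 and 14118.

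In SKOV3 the EV library stood apart from both transfectants in several genes. MAL2 had 930 counts in EV, 143 in SIVA-WT and 139 in SIVA-D160N, 7.68-fold and 7.19-fold lower in CPM than EV. CDH16 had 64.3, 137 and 147 CPM, so that both transfectants were higher, and PPL had 12.3, 4.87 and 5.45 CPM, so that both were lower. A further set of genes was ordered from EV through SIVA-WT to SIVA-D160N, with F11R at 42.9, 28.6 and 17.4 CPM, JUP at 22.1, 13.3 and 8.75 CPM and CDH3 at 27, 9 and 3 counts. CLDN4 had the reverse order with 46, 79 and 169 counts, and EPCAM had 29, 16 and 17. CDH1 had 7, 6 and 20 counts. The mesenchymal list in SKOV3 summed to 6720, 8348 and 8408 CPM, and its part in these differences was not tested. Since each condition is 1 library, the construct cannot be told apart from differences between cultures.

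**Figure D4:**
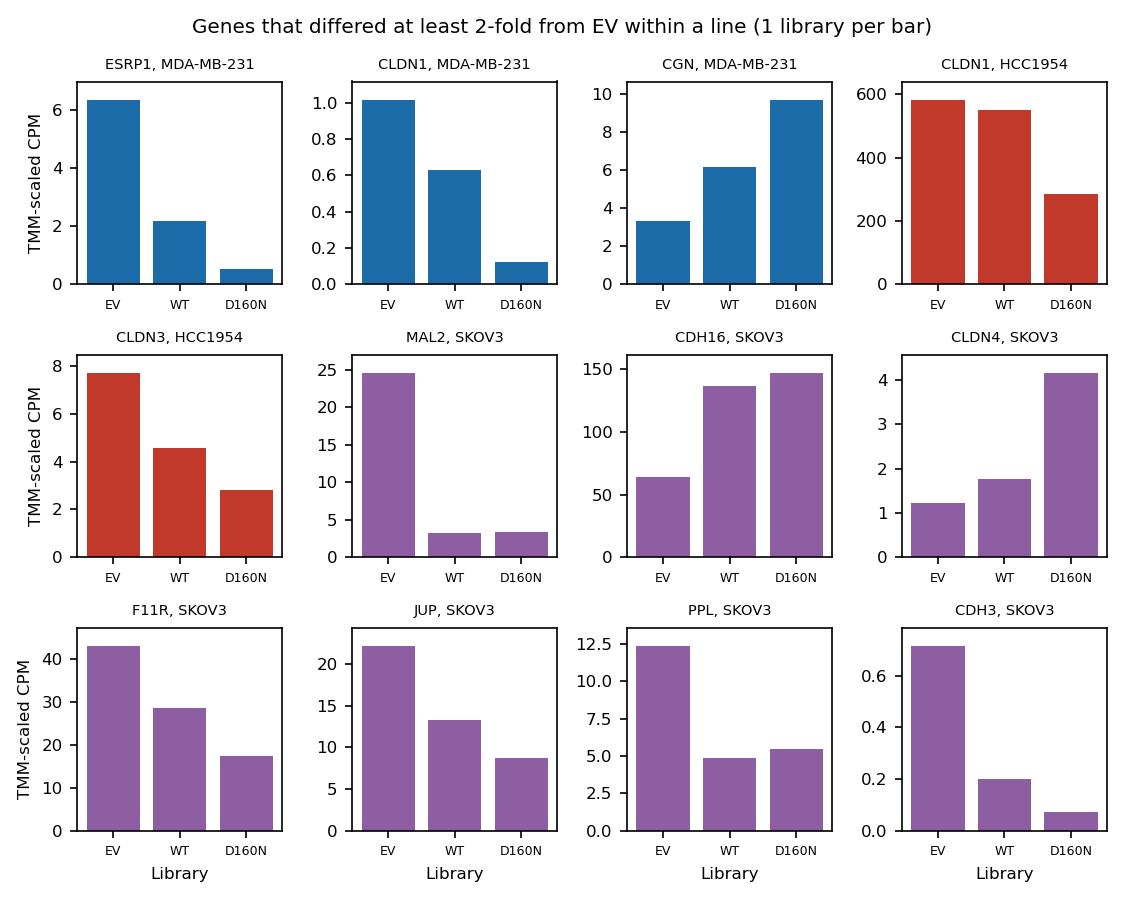
TMM-scaled CPM in the EV, SIVA-WT and SIVA-D160N libraries (1 library per bar, axes from 0 and scaled per panel) for 12 pairs of gene and line with a ratio of SIVA-D160N to EV of 2-fold or more. MAL2, CDH16 and PPL in SKOV3 differ between EV and both transfectants, whereas CLDN1 in HCC1954 is low in SIVA-D160N alone.

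No gene of the further lists was called with SIVA-D160N. Of the 35 further junction genes tested 0 were called in SIVA-D160N against EV by edgeR, with 6 at an unadjusted p under 0.05, or 17.1%, against 14.2% of all genes. Of the 21 mesenchymal genes 0 were called, with 6 at that level, all with higher values in SIVA-D160N, and their median log2 fold change was 0.29, against -0.04 for the 34 genes of the set and -0.01 over all genes. SIVA-WT against EV was similar, with 0 called and a median of 0.27. At an unadjusted p under 0.05 by edgeR there were 5 of 21 (23.8%), all with higher values, against 2.54% of all genes. Between SIVA-D160N and SIVA-WT the median was -0.08, with 0 called. By edgeR 3 were at that level (14.3%), all with lower values, against 6.88% of all genes.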

How the data were processed

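RNA was extracted with Trizol, libraries were made with the TruSeq Stranded mRNA kit and sequenced paired-end. The authors checked reads with FastQC, aligned them with STAR 2.5.3a to GRCh38 and deposited raw read counts per gene. The strand setting and annotation release of the counting are not given in the sources used here, so overlapping genes may share counts. A deposited table of scaled values was not used, as its columns sum to more than CPM can.

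The counts were analysed with edgeR 4.0.16 (R 4.3.3, quasi-likelihood test, TMM, filterByExpr, Benjamini-Hochberg adjustment). Conditions were compared with cell line as a block (17211 genes) and lines with condition as a covariate (19204 genes). Calls needed an FDR below 0.05 and a log2 fold change of 1.5 or more in size, the tissue difference an FDR below 0.05 alone. The SE of a log2 fold change was its absolute value divided by the square root of the edgeR F statistic. It can disagree with the p-value, as for ESRP2 in SIVA-D160N against EV (-0.17, SE 0.16, edgeR unadjusted p 0.812). DESeq2 1.42.0 and limma 3.58.1 (voom) were alternatives. Libraries of the same line correlated in their deviations from the condition means (r 0.929 to 0.968 over 12 pairs), those of different lines at -0.447 to -0.192 (54 pairs), so the lines, named in the labels, pair the libraries. None of the 66 pairs of libraries was identical. Nothing states that libraries came from separate cultures, so p-values measure the spread between these libraries. Totals ran from 35791455 to 45890398 counts, and 3 counts per library were taken as the floor, which covers counting error only.

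Ratios within a line used a prior count of 2 and no test. RPKM used the exonic length of each gene. The scripts were tested on simulated counts. All 41 genes were accounted for. Values were always given for CDH1, CDH3, CDH16, EPCAM, CLDN1, CLDN3, CLDN4, CLDN7, DSP, ESRP1, GRHL2, OVOL2, ELF3 and RAB25. The rule added the 6 genes with the smallest p in each comparison of conditions, the 5 largest calls in each pair of lines and the 3 largest ratios to EV in each line. Any gene outside this rule was named with its values in view. The members and lists were chosen with earlier results of these data known.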

Additional observations from a re-analysis of the deposited data

Results flagged for a closer look

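Among the 4 lines, a gene's level in 1 line was set against the others by Dixon's test on log2 of CPM plus 0.1 at the 95% level, which chance passes in about 1 of 20 sets. Of 120 sets 27 passed, against 6.0 by chance, and HCC1954 was the highest line in 22 of them. These sets share genes and lines and are not independent. A set was kept where at least 1 line had 10 counts or more. Those of MARVELD3, GRHL2, OVOL1, OVOL2, EHF and RAB25 had such counts in HCC1954 alone, as did CDH1 and TJP3 in EV. CDH16 in EV and in SIVA-WT had them in SKOV3 alone. All of these sets entered through the value that was then tested, so the number by chance cannot be set against them.

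In HCC1954 the CPM values that stood apart were 798 for CDH1 in EV, 696 and 734 for CDH3 in EV and SIVA-WT, 59.5 and 31.9 for TJP3 in EV and SIVA-D160N, 6.94 for OVOL2 in SIVA-WT and 202 for ST14 in SIVA-WT. In EV, SIVA-WT and SIVA-D160N alike, HCC1954 stood apart in MARVELD3 at 71.7, 61.0 and 57.2 CPM, in GRHL2 at 182, 199 and 240.5 CPM and in OVOL1 at 10.99, 9.81 and 12.1 CPM. The same held for EHF at 75.9, 100.04 and 70.9 CPM and for RAB25 at 158, 124 and 100.3 CPM. The lines that stood apart in other ways were SKOV3 in CDH16 in SIVA-WT, highest at 137 CPM, and MDA-MB-231 in TJP1 in EV, highest at 194 CPM. SKOV3 was also the lowest line in EVPL, at 0, 0 and 0.0491 CPM in EV, SIVA-WT and SIVA-D160N.

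Of 68 sets of within-line log2 ratios 4 passed, against 3.4 by chance. Against EV, SIVA-D160N gave -3.45 for ESRP1 in MDA-MB-231 and -2.63 for CDH3 and -0.62 for SPINT1 in SKOV3, and SIVA-WT gave -2.92 for MAL2 in SKOV3. CDH3 and SPINT1 in SKOV3 rest on 27 counts or fewer.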

How the results depend on the processing

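Across the alternatives (other normalisation, DESeq2, limma-voom, other filters, FDR alone, each line or condition left out) the number of genes of the set called between lines ranged from 28 to 37 for HCC1954 and MDA-MB-231, 29 to 39 for OVCAR8 and HCC1954, 30 to 39 for SKOV3 and HCC1954, 12 to 23 for OVCAR8 and MDA-MB-231, and 20 to 28 both for SKOV3 and MDA-MB-231 and for SKOV3 and OVCAR8. With each condition left out in turn these were, in the same order, 34 to 35, 35 to 36, 35, 15 to 19, 21 to 23 and 20 to 21, and with each line left out the comparisons of conditions gave 0 calls.

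The same lines under each condition pair the libraries. Without the replicate block, 0 genes of the set were called in any comparison of conditions, as with it, and JUP in SIVA-D160N against EV turned from negative to 0.012. Without the block on condition the calls between lines, in the order above, were 34, 35, 36, 16, 22 and 20.

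With no filter on low counts 1 gene of the set, MAL2, was called in SIVA-WT against EV (-1.61, edgeR FDR 0.0121) and 1, again MAL2, in the tissue difference (-2.56, edgeR FDR 5.32e-04), and the cause was not tested. There CDH16, DSG2, JUP and CLDN1 in SIVA-D160N against EV also had an edgeR FDR of 0.00305, 0.0422, 0.0355 and 0.0313, under 1.5 in size. With each line left out the lowest edgeR FDR of the set in SIVA-D160N against EV was 0.194 to 0.324. MAL2 in the tissue difference became 0.86 without HCC1954 and 0.61 without SKOV3, and ELF3 became 0.75 without SKOV3. TJP3 in SIVA-D160N against SIVA-WT was 0.044 by DESeq2.

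The counts of ratios of 2-fold or more moved with the treatment of low counts. With a prior count of 0.5 MDA-MB-231 had 8 in SIVA-WT against EV and 7 in SIVA-D160N against SIVA-WT, and HCC1954 and OVCAR8 each had 2 in the latter. With a prior count of 5 OVCAR8 had 1 in SIVA-WT against EV and 0 in SIVA-D160N against SIVA-WT, where SKOV3 had 2. With at least 20 counts in a library, an alternative chosen after seeing the data as was that of 10 counts between lines, MDA-MB-231 had 3 in SIVA-D160N against EV, 2 in SIVA-WT against EV and 2 in SIVA-D160N against SIVA-WT, and SKOV3 had 2 in the last.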

Other observations

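A few genes of the set had values on the same side in all 4 lines between the constructs without passing the test over lines. EPCAM was higher in SIVA-D160N than in SIVA-WT in 4 of 4 lines, by 0.02 to 0.20 on the log2 scale. F11R, ESRP2 and SPINT1 were lower in 4 of 4 lines, F11R with log2 ratios of -0.71 in SKOV3, -0.31 in OVCAR8, -0.24 in MDA-MB-231 and -0.12 in HCC1954. In SKOV3 EPCAM had 17 counts in SIVA-D160N against 16 in SIVA-WT, and ESRP2 8 against 10. In MDA-MB-231 SPINT1 had 3 against 18. The share of all genes on the same side in 4 of 4 lines was not counted. Between SIVA-WT and EV the genes lower in 4 of 4 lines were CLDN1, MAL2 and SPINT2, of which MAL2 had 1 count or none in MDA-MB-231 and 5 counts in both OVCAR8 libraries. Ratios of this size within a line rest on 1 library per condition.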
